A study of Mus musculus with 4 samples.

Results

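The genes examined were Dusp1, Dusp2, Dusp4, Dusp5, Dusp6 and Dusp10, 6 dual-specificity phosphatases of MAP kinases taken as a list by gene symbol, out of 19752 genes that a row of the array named singly. Each had exactly 1 row that named it alone, and none was listed in a row together with another gene. The list was sorted by where the protein acts. Dusp1, Dusp2, Dusp4 and Dusp5 are nuclear, Dusp6 is cytoplasmic, and Dusp10 is found in both compartments. All 6 lay above the median of all rows on each of the 4 arrays, so the filter on dim genes set none aside.

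MAP kinases are switched on when an upstream kinase phosphorylates a threonine and a tyrosine in their activation loop, and dual-specificity phosphatases switch them off by removing both phosphates. Many of these phosphatase genes are themselves switched on soon after a stimulus, often through the kinase that the protein later inactivates, which makes them textbook negative feedback genes. In T cells, engagement of the antigen receptor and CD28 activates ERK, JNK and p38, the best known MAP kinases, whereas interferon alpha signals mainly through Janus kinases and STAT factors.

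RNA came from splenic CD4+ T cells of male C57BL/6 mice aged 6 weeks, which were enriched by negative selection and activated for 48 h with beads against CD3 and CD28. The groups were untreated cells at baseline (2 arrays), cells given IFNa at 100 U/ml for 2 h (1 array) and cells given it for 8 h (1 array). Bead activation was thus common to all 4 arrays, and the preparation note of the IFNa arrays also mentions Janus kinase inhibitors as given or not, although IFNa is the sole treatment in the rest of their labels. The labels do not state if the baseline pair was drawn from different animals or different cultures. The p-values therefore measure only how far apart those 2 arrays lie, which may be a technical spread, and a single IFNa array is taken to scatter as much as they do. Time in culture and IFNa cannot be told apart, because no untreated cells of a matching time were analysed here.

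Values are log2 of the deposited intensity, and a gene was called at a limma adjusted p under 0.05 over 10699 tested genes. Over all tested genes the median log2 difference from baseline was 0.06 for the 2 h array and -0.16 for the 8 h array, and the 8 h array stood -0.25 from the 2 h array. All 7 measured markers of CD4 T cells, Cd4 and Cd28 among them, lay above the array median on every array, with a summed intensity of 28058 and 32622 on the baseline arrays, 31923 after 2 h and 34882 after 8 h. Of 24 measured markers of other blood cells 13 lay above the median on no array and 7 on every array. Those 7 were all 4 measured B cell markers and 1 each of CD8 T cells, NK cells and monocytes or macrophages. The 24 markers summed to 5631 and 5239 on the baseline arrays, 4925 after 2 h and 6265 after 8 h. None was listed at 0, since these values keep a floor of background. In bulk RNA, fewer cells of a type and less RNA per cell cannot be told apart.

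At 2 h of IFNa the nuclear phosphatases Dusp4 and Dusp5 rose, and at 8 h they and the cytoplasmic phosphatase Dusp6 were far below the 2 h array. Dusp4 was 3.90-fold and Dusp5 2.97-fold above baseline at 2 h. At 8 h, relative to 2 h, Dusp4 was 5.94-fold, Dusp5 4.06-fold and Dusp6 3.40-fold lower. No member was called at 8 h against baseline. Dusp1 and Dusp10 differed little at 2 h, with log2 differences of -0.03 (SE 0.23) and -0.04 (SE 0.20).

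**Figure D1:**
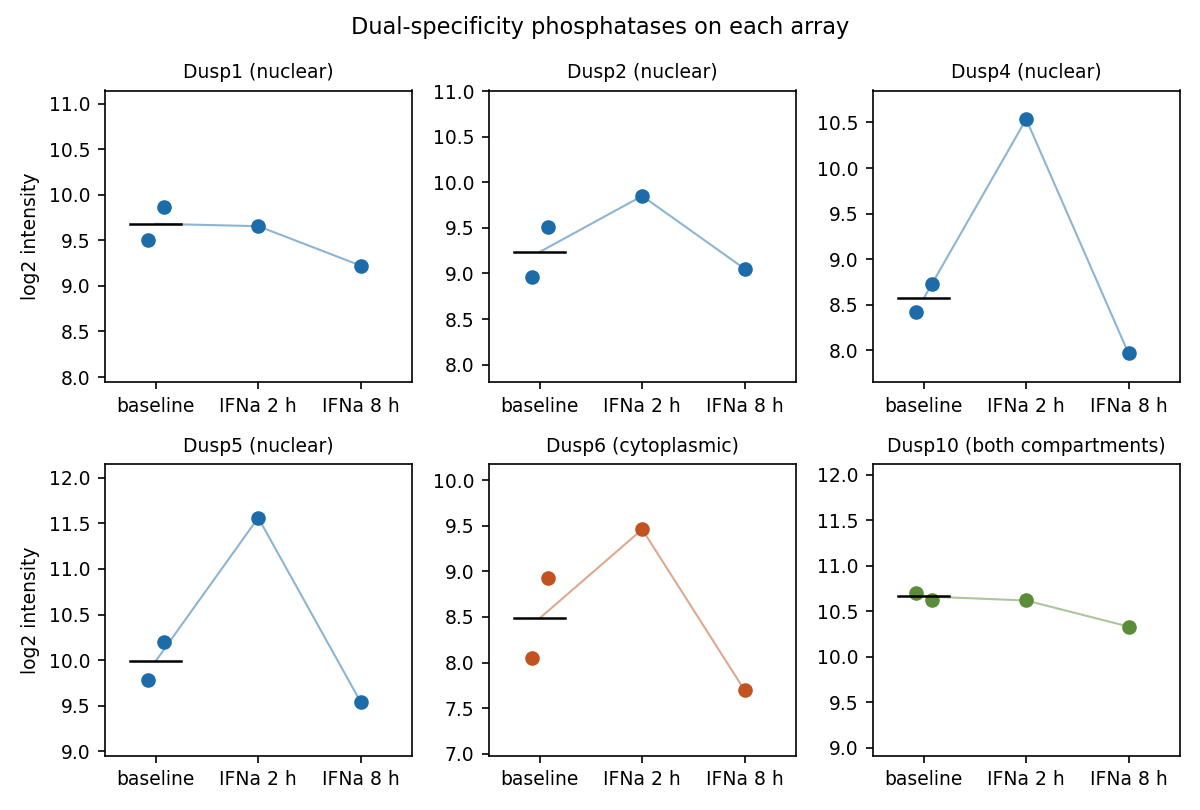
The log2 intensity of each phosphatase is plotted for the 2 baseline arrays, the IFNa 2 h array and the IFNa 8 h array, with 1 point per array, a black bar at the baseline mean and a line as a guide between groups. Every panel spans the same number of log2 units; Dusp4 and Dusp5 peak on the 2 h array at 10.54 and 11.56, while Dusp10 stays between 10.33 and 10.70.

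Dusp4, a nuclear phosphatase of ERK and JNK, read 8.42 and 8.73 on the baseline arrays, 10.54 after 2 h and 7.97 after 8 h. The 2 h array stood above both baseline arrays by several times their gap, and the 8 h array lay below both. Its log2 difference at 2 h was 1.96 (SE 0.22, adjusted p = 0.00465), and it ranked 33rd from the top of the 10699 tested genes. At 8 h its difference from baseline was -0.61 (SE 0.22, adjusted p = 0.15). Against 2 h the 8 h array was lower by a log2 difference of -2.57 (SE 0.26, adjusted p = 0.00786), the 8th lowest of all tested genes.

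Dusp5, a nuclear phosphatase that acts on ERK and also holds it in the nucleus, read 9.78 and 10.20 on the baseline arrays, 11.56 after 2 h and 9.54 after 8 h. It had the same order of arrays as Dusp4, with 2 h highest and 8 h lowest. The 2 h difference was 1.57 (SE 0.24, adjusted p = 0.0183), the 53rd highest. At 8 h the difference was -0.45 from baseline (SE 0.24, adjusted p = 0.273) and -2.02 from 2 h (SE 0.27, adjusted p = 0.00963), the 35th lowest.

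Dusp2, a nuclear phosphatase first known from activated lymphocytes, read 8.96 and 9.51 on the baseline arrays, 9.85 after 2 h and 9.05 after 8 h. Its 2 h array was above both baseline arrays, but the gap between the baseline arrays was wider than the step above the higher of them. The 2 h difference of 0.61 (SE 0.26) did not pass (adjusted p = 0.399), and it was 0.89 against baseline 1 alone and 0.34 against baseline 2 alone. At 8 h it stood between the baseline arrays, with a difference of -0.19 from baseline (SE 0.26, adjusted p = 0.689) and -0.80 from 2 h (SE 0.30, adjusted p = 0.0972). The 8 h difference from baseline changed sign, to 0.096, after quantile normalization. Against 2 h it was -0.36 after quantile normalization (adjusted p = 0.299) and passed limma's test with median-centred arrays (-0.98, adjusted p = 0.0225), within a range of adjusted p from 0.0225 to 0.458 over the alternatives.

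Dusp1, the nuclear phosphatase of p38, JNK and ERK and a classical immediate early gene, read 9.50 and 9.86 on the baseline arrays, 9.65 after 2 h and 9.22 after 8 h. The 2 h array fell between the baseline arrays, and the 8 h array was the lowest. The 2 h difference (adjusted p = 0.974) was positive, at 0.073, when each array was centred on its median. At 8 h Dusp1 stood at -0.46 from baseline (SE 0.23, adjusted p = 0.253) and -0.43 from 2 h (SE 0.26, adjusted p = 0.265), so it passed in no comparison. After quantile normalization these were -0.18 and -0.0015.

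Dusp6 is the member that acts in the cytoplasm, where it is selective for ERK. It read 8.05 and 8.92 on the baseline arrays, 9.46 after 2 h and 7.70 after 8 h, and the baseline arrays were further apart for it (0.87) than for any other member. The 2 h array was above both of them and the 8 h array below both. Its 8 h value lay just above that array's median of 7.64, where the floor of background may shrink its folds. The 2 h difference of 0.97 (SE 0.33) did not pass (adjusted p = 0.3), and was 1.41 against baseline 1 alone but 0.54 against baseline 2 alone. It passed limma's test at 2 h after quantile normalization (0.86, adjusted p = 0.0255) and with median-centred arrays (1.07, adjusted p = 0.0119), while the adjusted p ran from 0.0119 to 0.814 over the alternatives. Quantile-normalized values with the prior and spread of the deposited values gave the same 0.86 but did not pass limma's test (adjusted p = 0.409). At 8 h the difference from baseline was -0.79 (SE 0.33, adjusted p = 0.185), or -0.36 against baseline 1 alone and -1.23 against baseline 2 alone. The 8 h difference passed in the same settings, quantile normalization (adjusted p = 0.0181) and with median-centred arrays (adjusted p = 0.0407), within a range of adjusted p over the alternatives of 0.0181 to 0.476. With the prior and spread of the deposited values it did not pass limma's test after quantile normalization (adjusted p = 0.21). Against 2 h the 8 h array was lower by -1.77 (SE 0.38, adjusted p = 0.0281), a comparison whose difference uses no baseline array and whose error does. That call was lost when dim genes were kept in the test (adjusted p = 0.0575, within a range of 9.18e-07 to 0.239 over the alternatives).

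Dusp10, which acts on JNK and p38 in both compartments, had the narrowest range. Its arrays read 10.70 and 10.63 on the baseline arrays, 10.62 after 2 h and 10.33 after 8 h, and the 8 h array alone stood clear of the others. The differences were -0.04 at 2 h (adjusted p = 0.943) and -0.33 at 8 h (SE 0.20, adjusted p = 0.335) from baseline, and -0.29 at 8 h from 2 h (SE 0.23, adjusted p = 0.399). Between its highest and lowest array it moved by 0.37, against 2.57 for Dusp4, 2.02 for Dusp5, 1.77 for Dusp6, 0.89 for Dusp2 and 0.64 for Dusp1.

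Counted over the 6 members, 2 rose and none fell at 2 h against baseline, where 1.09% of all tested genes rose and 0.00935% fell. At 8 h against baseline limma called 0 of 6 (2 of 6 at an unadjusted p under 0.05, Dusp4 and Dusp6), where 4.0% of all tested genes were called, 0.654% higher and 3.35% lower. At 8 h against 2 h 3 members fell and none rose, against 10.8% of tested genes that fell and 1.46% that rose. Of all 10699 tested genes, limma gave an unadjusted p under 0.05 to 1298 at 2 h, 2636 at 8 h against baseline and 3893 at 8 h against 2 h. The unadjusted counts of the gene lists below stand against these. The split of all tested genes into higher and lower calls depended on scaling and on the prior of limma's moderation. It was 117 higher and 1 lower at 2 h, but 332 and 109 after quantile normalization. At 8 h against baseline it was 70 higher and 358 lower, but 663 and 900 after quantile normalization. At 8 h against 2 h it was 156 higher and 1155 lower, but 990 and 1316. Quantile normalization also raised the prior from 7.46 to 34.8 degrees of freedom. With quantile-normalized values but the prior and spread of the deposited values, the splits were 88 and 2, 105 and 258, and 215 and 511. That alternative was chosen after seeing the data. With every row of the array tested, no member was called by limma in any comparison: Dusp4 and Dusp5 had an adjusted p of 0.283 and 0.508 at 2 h, and Dusp4, Dusp5 and Dusp6 of 0.239 each at 8 h against 2 h. Without regard to size, 4 members lay above both baseline arrays at 2 h, as 44.5% of tested genes did, and 1 (Dusp10) lay below both, as 33.0% did. At 8 h 5 members, all but Dusp2, lay below both baseline arrays, as 55.9% of tested genes did. Lying outside the baseline pair was thus common among all genes.

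**Figure D2:**
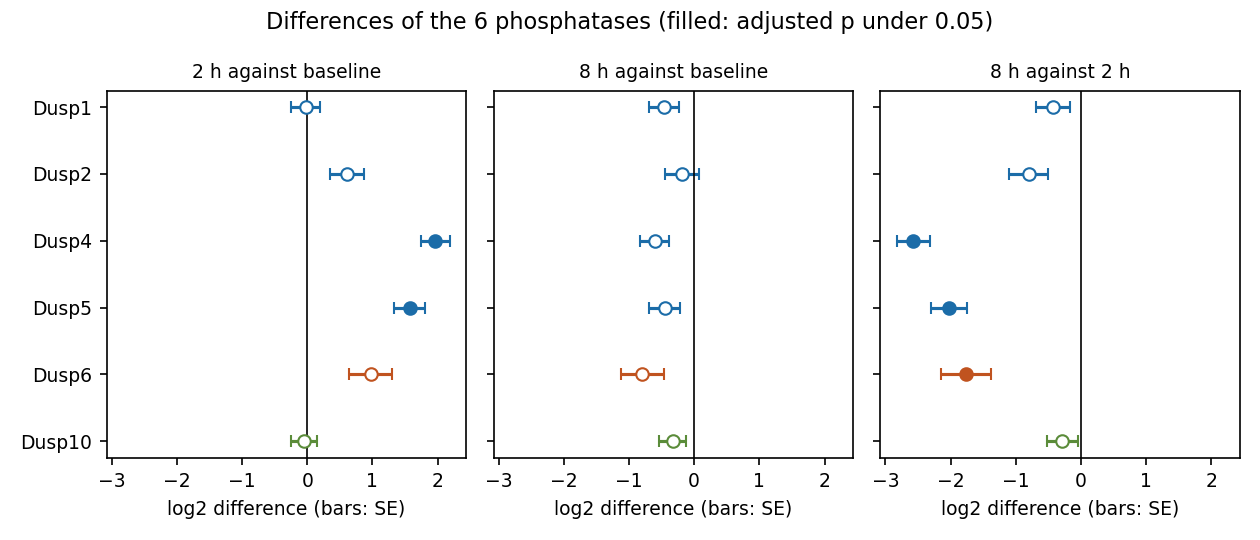
Log2 differences with their moderated standard errors are plotted for the 6 phosphatases in 3 comparisons, in blue for nuclear, orange for cytoplasmic and green for both compartments, with filled points for an adjusted p under 0.05. Filled points appear for Dusp4 and Dusp5 at 2 h, for none at 8 h against baseline, and for Dusp4, Dusp5 and Dusp6 at 8 h against 2 h.

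Nuclear and cytoplasmic members were set side by side as medians. The median log2 difference of the 4 nuclear members was 1.09 at 2 h, beside 0.97 for cytoplasmic Dusp6. At 8 h it was -0.45 from baseline, beside -0.79 for Dusp6, and -1.41 from 2 h, beside -1.77 for Dusp6. The gap between the nuclear median and Dusp6 at 2 h (0.12) was 0.31 when baseline 1 was left out and -0.07 when baseline 2 was left out, so its sign rested on which baseline array was used. At 8 h from baseline the gap of 0.34 was 0.58 when baseline 1 was left out, 0.10 when baseline 2 was left out and 0.61 after quantile normalization. At 8 h from 2 h it was 0.36, or 0.64 after quantile normalization. Within the nuclear group the 2 h differences ran from -0.03 for Dusp1 to 1.96 for Dusp4, with Dusp6 inside that range. At 8 h from baseline they ran from -0.61 for Dusp4 to -0.19 for Dusp2, with Dusp6 below all of them. That place of Dusp6 rested on which baseline array was used. Against baseline 1 alone Dusp6 (-0.36) stood above Dusp4 (-0.45), and against baseline 2 alone Dusp6 (-1.23) was below all nuclear members. No test was made between compartments, since 1 cytoplasmic gene gives no spread and the members were chosen with results known.

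The other MAP kinase phosphatases add 2 cytoplasmic phosphatases of ERK, Dusp7 and Dusp9. Dusp9 read 7.38 and 7.43 on the baseline arrays, 7.10 after 2 h and 7.83 after 8 h, above the array median at 8 h alone. It thus passed the filter on dim genes only through the array where it was high, so Dusp7 alone is set beside Dusp6. Dusp7 read 11.86 and 11.93 on the baseline arrays, 11.30 after 2 h and 11.68 after 8 h, lowest at 2 h where Dusp6 was highest. Its differences were -0.59 at 2 h (adjusted p = 0.306) and -0.21 at 8 h (adjusted p = 0.534). Dusp9 stood at -0.31 at 2 h (adjusted p = 0.573) and 0.42 at 8 h (adjusted p = 0.236).

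The remaining pair, Dusp16 and Dusp8, acts on JNK and p38. Dusp8 read 7.32 and 7.35 on the baseline arrays, 7.425 after 2 h and 7.93 after 8 h, so it too was above the array median at 8 h alone. Dusp16 read 7.90 and 8.14 on the baseline arrays, 8.65 after 2 h and 7.11 after 8 h, the same order of arrays as Dusp6. It was lower at 8 h than at 2 h (-1.54, SE 0.25, adjusted p = 0.0137), with 0.63 at 2 h (adjusted p = 0.3) and -0.91 at 8 h (adjusted p = 0.0546) from baseline. Dusp8 stood at 0.09 at 2 h (adjusted p = 0.877) and 0.59 at 8 h (adjusted p = 0.131). Of these 4 genes none was called at 2 h or 8 h against baseline (2 and 2 at an unadjusted p under 0.05) and Dusp16 alone at 8 h against 2 h. The 2 at 8 h include Dusp8, which passed the filter only through that array, so its count there is no test.

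**Figure D3:**
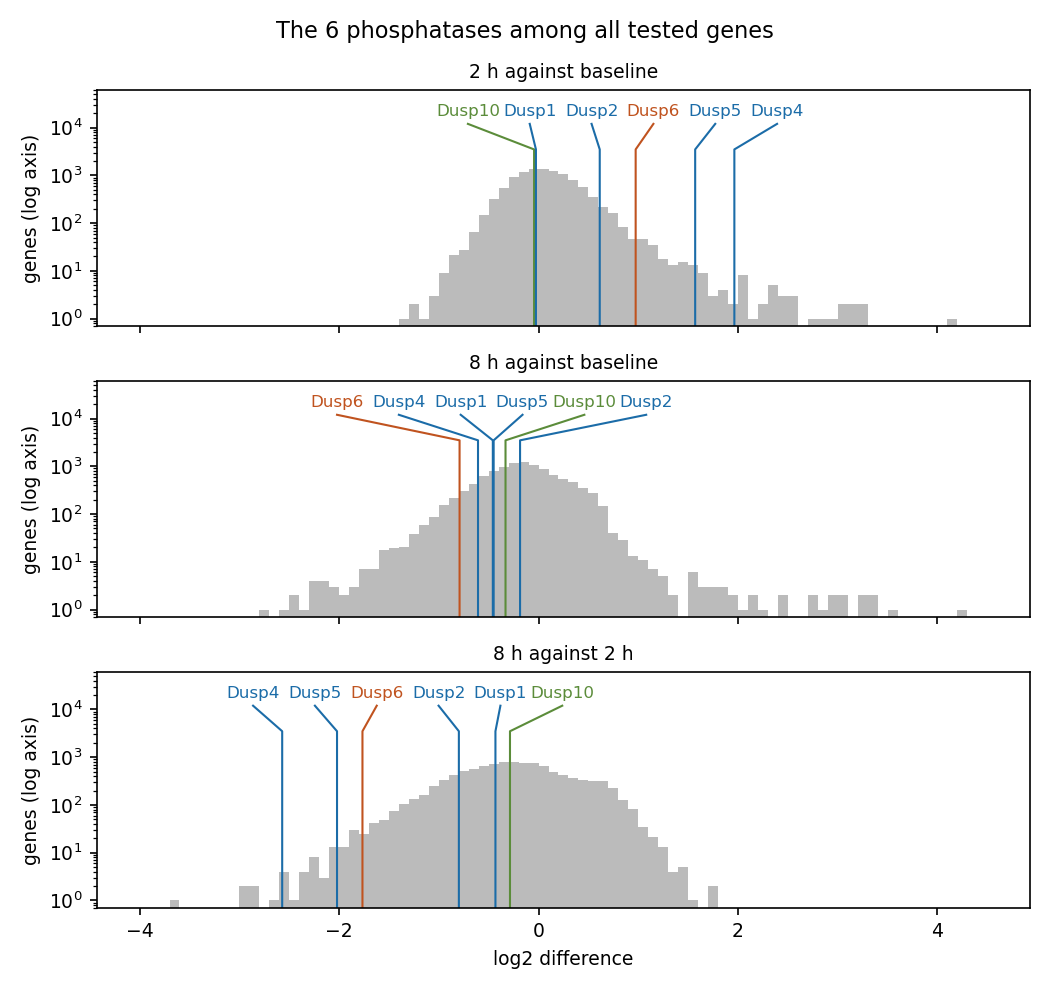
Histograms of the log2 differences of all 10699 tested genes are drawn on a log count axis for 3 comparisons, with a line for each phosphatase in the colour of its compartment. Dusp4 and Dusp5 sit in the right tail at 2 h (1.96 and 1.57), all 6 sit left of 0 at 8 h against baseline (Dusp2 at 0.096 after quantile normalization), and Dusp4, Dusp5 and Dusp6 sit in the left tail at 8 h against 2 h.

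Likeness of pattern was measured as the Euclidean distance over the 4 arrays after each gene was centred on its baseline mean, so it reads shape and not level. Dusp5 was the 5th nearest of all tested genes to Dusp4: their distance was 0.43, against 1.08 between Dusp4 and Dusp6 and 2.00 between Dusp4 and Dusp1. The genes nearest to Dusp4 were Spsb1 (distance 0.20), an adaptor of a ubiquitin ligase, Nfkbid (0.40), an inhibitor of NF-kB of the nuclear kind, and the stress gene Gadd45b (0.40). Those nearest to Dusp5 were Nfkbid (0.09), Tent5a (0.21), a poly(A) polymerase, and Gbp5 (0.24), a guanylate-binding protein. Next to Dusp6 stood Rrs1 (0.13), a ribosome biogenesis factor, Ttc27 (0.19) and Tfam (0.19), a factor of mitochondrial DNA. The distance also counts the gap between the baseline arrays. That gap was 0.87 for Dusp6, 0.76 for Rrs1, 0.72 for Ttc27 and 0.91 for Tfam. Its median absolute size over all tested genes was 0.18.

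The patterns differed in how common they were. Within a distance of 0.5 lay 6 tested genes for Dusp4, 29 for Dusp5, 102 for Dusp6, 2029 for Dusp2, 4632 for Dusp1 and 5381 for Dusp10. Nearest to Dusp2 were Golm1 (0.03), Hif1an (0.03) and Lsm11 (0.05). The nearest genes were Mtmr4 (0.02), Gmppa (0.04) and Ripk3 (0.04) for Dusp1, and Zfr, Tcea1 and Ube2f (0.03 each) for Dusp10. These are 4 arrays that share 1 processing, and with so many genes near Dusp1, Dusp2 and Dusp10 their nearest neighbours carry little.

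Promoter sequence is shown for 3 members that differed in their course, Dusp5, Dusp6 and Dusp1. Dusp5 was called at 2 h, and Dusp1 in no comparison. Dusp6 was called at 8 h against 2 h, but at 2 h only in some alternatives. Of the 6 members 5 were in the RefSeq promoter table (build GRCm38.p6), which did not include Dusp4. The windows are the 250 bases before the annotated start, printed 5′ to 3′ on the gene's strand, with matched motifs in capitals. They lie at chr19:53528895-53529144 (plus strand) for Dusp5, chr10:99262981-99263230 (plus strand) for Dusp6 and chr17:26508473-26508722 (minus strand) for Dusp1.
Dusp5: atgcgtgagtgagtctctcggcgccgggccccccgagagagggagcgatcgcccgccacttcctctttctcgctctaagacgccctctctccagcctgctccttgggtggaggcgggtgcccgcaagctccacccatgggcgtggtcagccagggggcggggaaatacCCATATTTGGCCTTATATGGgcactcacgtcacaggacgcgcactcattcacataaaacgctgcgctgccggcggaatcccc
Dusp6: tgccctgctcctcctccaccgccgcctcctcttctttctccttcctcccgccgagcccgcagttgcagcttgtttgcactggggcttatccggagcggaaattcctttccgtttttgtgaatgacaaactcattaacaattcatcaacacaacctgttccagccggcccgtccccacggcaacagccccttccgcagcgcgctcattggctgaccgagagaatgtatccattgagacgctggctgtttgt
Dusp1: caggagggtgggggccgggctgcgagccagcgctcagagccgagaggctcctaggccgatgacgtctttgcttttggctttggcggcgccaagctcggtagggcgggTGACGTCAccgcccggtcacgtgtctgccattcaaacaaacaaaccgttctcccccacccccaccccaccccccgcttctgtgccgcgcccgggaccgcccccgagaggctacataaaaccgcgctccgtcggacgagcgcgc

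The capitals in Dusp5 mark 2 adjoining CArG boxes, the element bound by serum response factor, at 82 to 73 and 72 to 63 bases before the start. A CArG box was found in 1.47% of all 32851 windows of this length, and 2 or more in 0.0183%. The capitals in Dusp1 mark a cyclic AMP response element, TGACGTCA, at 143 to 136 bases before the start, present in 1.55% of windows. In Dusp2 the EGR site GCGNGGGCG was matched at 98 to 90 bases before the start, as in 4.70% of windows. Dusp6 and Dusp10 held none of the 7 motifs searched on both strands, which were these 3, the AP-1 site TGANTCA (6.75% of windows), the interferon-stimulated response element core, GAAA repeated after any pair of bases (2.98%), the GAS site TTCNNNGAA (7.02%) and TATAAA (12.4%). No matches overlapped, and none of the 5 windows matched either of the interferon motifs. Dusp4, which had no window, was not searched. A match describes letters in a short window and is not evidence that a factor binds there.

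Across 10 lists of other MAP kinase pathway genes, 89 of 116 listed genes were tested. At 2 h 2 rose and none fell (2.25% called, against 1.1% of all tested genes), at 8 h against baseline 7 fell and none rose (7.87% against 4.0%), and at 8 h against 2 h 20 fell and none rose (22.5% against 12.3%). Their median differences were 0.20, -0.21 and -0.44, beside 0.06, -0.16 and -0.25 for all tested genes. At an unadjusted p under 0.05 in limma's test the counts were 23, 22 and 39 of the 89, beside 1298, 2636 and 3893 of all 10699 tested genes. At 8 h against baseline this was about the share of all tested genes. The unadjusted counts include genes that passed the filter only through the array where they were high, such as Fos at 2 h and Dusp8 at 8 h.

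Both pathway genes that rose at 2 h were on the list of ERK-driven immediate early genes. That list also holds transcription factors that regulate such genes. Of its 16 tested genes 2 rose and none fell at 2 h, with a median of 0.55. That median includes Fos (7.59 at 2 h) and Etv5 (7.62 at 2 h), which passed the filter on dim genes only through the 2 h array. The 2 that rose were the zinc finger factor Egr2 (1.65, SE 0.21, adjusted p = 0.00886) and the AP-1 subunit Fosl2 (1.18, SE 0.20, adjusted p = 0.0346). At 8 h against baseline 3 fell, Egr2 (adjusted p = 0.0411), Jun (-1.38, adjusted p = 0.022) and Myc (-1.20, adjusted p = 0.0232), with a list median of -0.17. Myc was named after its value was seen, to complete that count. Against 2 h 8 of the 16 fell, Egr3 by 1.47 among them (adjusted p = 0.0182), with a median of -0.86. Egr2 read 9.26 and 9.45 on the baseline arrays, 11.00 after 2 h and 8.36 after 8 h, the same order of arrays as Dusp4 and Dusp5.

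Feedback inhibitors of Ras and ERK outside the phosphatase family also held genes that fell. Of 11 tested none was called at 2 h (2 at an unadjusted p under 0.05), 2 fell at 8 h against baseline and 4 at 8 h against 2 h, with medians of 0.12, -0.40 and -0.52. Spred1, an inhibitor of Ras-dependent activation of Raf, fell by 1.67 at 8 h against baseline (SE 0.21, adjusted p = 0.00633). The Ras GTPase activator Nf1 fell by 1.05 (SE 0.20, adjusted p = 0.0318). Spry1, a Sprouty protein induced by ERK signalling, did not pass at 2 h (adjusted p = 0.0989) and was lower at 8 h than at 2 h (-1.40, SE 0.26, adjusted p = 0.0185). Errfi1 was also lower at 8 h than at 2 h (-1.31, adjusted p = 0.0205).

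The MAP kinases, which the phosphatases act on, and the kinases upstream of them held no call at 2 h. Among 7 MAP kinases Mapk6 alone was called, lower at 8 h than at 2 h (-1.04, SE 0.25, adjusted p = 0.0361), and the list medians were 0.21, -0.21 and -0.54 in the 3 comparisons. Of 6 MAP kinase kinases, Map2k3, an activator of p38, and Map2k4, an activator of JNK and p38, were lower at 8 h than at 2 h (-1.72, adjusted p = 0.0151, and -0.89, adjusted p = 0.0446), with list medians of 0.33, -0.34 and -0.63. Map3k8, a kinase upstream of ERK, was the called gene among 11 Raf and MAP kinase kinase kinases (-1.24 at 8 h against 2 h, adjusted p = 0.0202), with medians of 0.17, -0.21 and -0.35. At 2 h 0, 2 and 2 genes of these lists had an unadjusted p under 0.05, and at 8 h against baseline, where limma called none either, 2, 1 and 3.

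Of 11 genes for Ras and its exchange factors, the small GTPase Rras2 fell at 8 h against baseline (-1.28, SE 0.20, adjusted p = 0.0185) and was lower than at 2 h (-1.57, adjusted p = 0.0121), with list medians of 0.10, -0.23 and -0.34. Among 7 MAP kinase-activated kinases, Mapkapk2 and Mapkapk3, kinases activated by p38, were lower at 8 h than at 2 h (-1.34, adjusted p = 0.0305, and -1.70, adjusted p = 0.0136), and the medians were 0.21, -0.27 and -0.44. Among 7 tested atypical dual-specificity phosphatases, which lack the domain that docks MAP kinases, Dusp22 fell at 8 h against baseline (-0.98, SE 0.20, adjusted p = 0.0393), and the medians were 0.02, -0.10 and -0.54. Dusp12, on this list, passed the filter only through the 2 h array. The 9 tested phosphatases of other families act on MAP kinases or on steps upstream of them. They held no call in any comparison (1, 0 and 2 at an unadjusted p under 0.05) and had medians of 0.13, 0.02 and -0.03. Ptpn22 stood at 0.49 at 2 h and Ppp2cb at -0.45 at 8 h against baseline.

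**Figure D4:**
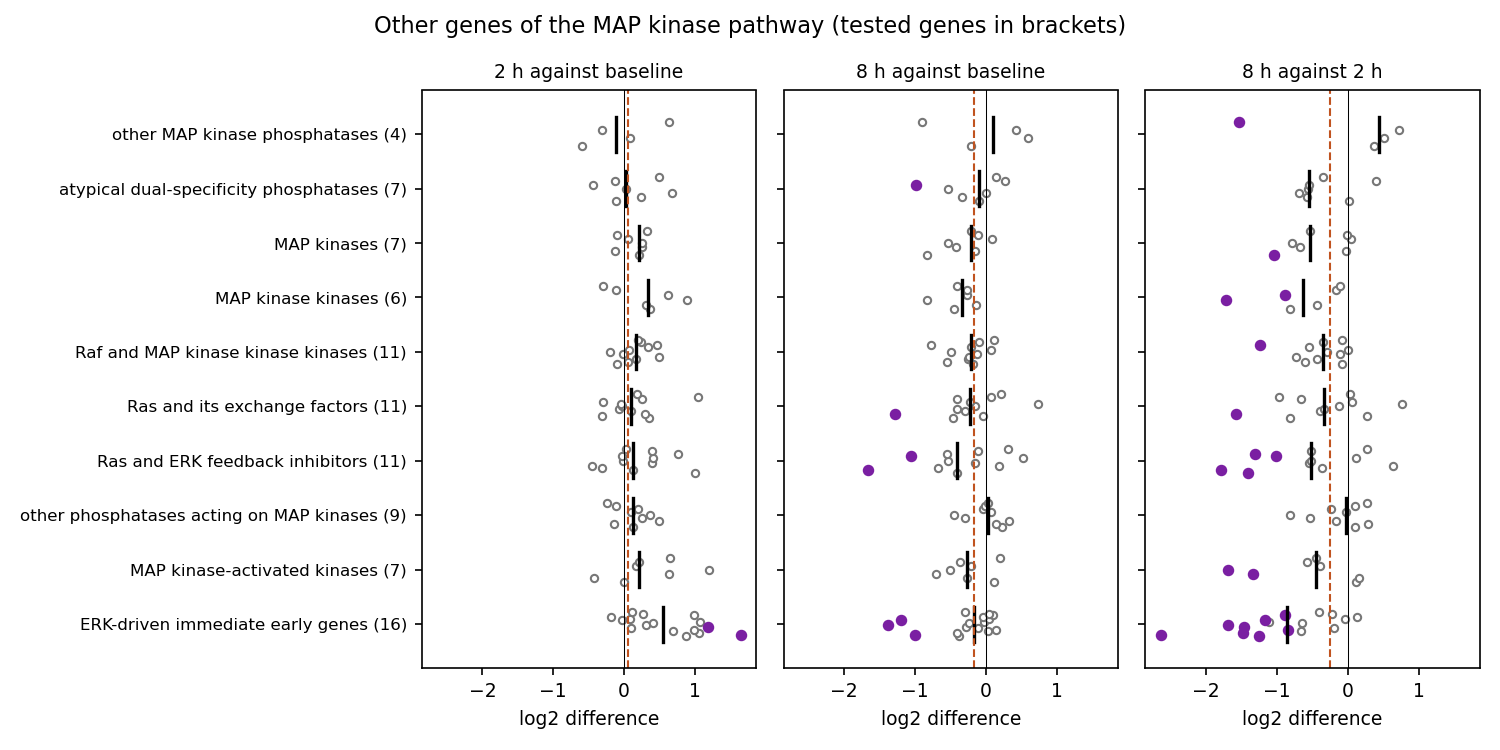
Log2 differences of the tested genes on 10 lists of the MAP kinase pathway are plotted for 3 comparisons, 1 point per gene, filled at an adjusted p under 0.05, with a black bar at the list median and a dashed line at the median of all tested genes. The list of immediate early genes, which also holds regulators of them, has the highest median at 2 h (0.55) and the lowest at 8 h against 2 h (-0.86). All filled points at 8 h lie left of 0.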

How the data were processed

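Total RNA of each sample went onto its own Affymetrix Mouse Gene 1.0 ST array. The deposited values are intensities on a linear scale; the submitters' processing notes name RMA and Affymetrix Power Tools without versions. The sources used here do not say if RMA took all 4 arrays at once. Unspecific binding remains in RMA values and shrinks the folds of dim genes, and the number of arrays limits the precision.

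Log2 of the intensity was taken with no pseudocount. Of 24922 rows, 21425 had 1 gene symbol in the platform annotation, 1399 had several and 2098 had none listed, and only the first kind was used. Gene identifiers were looked up in RefSeq (GRCm38.p6), which changed 0 symbols and had no match for 78. A gene was represented by its row with the highest mean and tested if above the array's median (50th percentile) of all rows on at least 1 array. Limma 3.58.1 in R 4.3.3 fitted a mean per group over all 4 arrays, with empirical Bayes moderation, two-sided, and Benjamini-Hochberg adjustment. There was 1 residual degree of freedom per gene, and the estimated prior had 7.46 degrees of freedom and an SD of 0.175. Scripts were tested on simulated data with known changes. Of the simulated calls at an adjusted p under 0.05, 11.4% were false at 2 h, 8.53% at 8 h against baseline and 10.9% at 8 h against 2 h. In the same order, 57.8%, 47.9% and 32.3% of 2-fold changes were called, and 99.7%, 99.4% and 98.7% of 4-fold changes.

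The 6 members, the gene lists and the tests were chosen with earlier results of these data known. Genes named were all measured genes on the list of other MAP kinase phosphatases, the called genes of each other list, up to 4 by size, or the 2 largest differences where none was called, and the 3 genes nearest to each member. Myc was named outside that rule. Alternatives covered normalization, the filter, the moderation, the choice of row, the threshold and leaving out a baseline array.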

Additional observations from a re-analysis of the deposited data

Results flagged for a closer look

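The difference from baseline at 8 h was not the same as that at 2 h for 3 of the 6 phosphatases, by limma's test of the 8 h array against the 2 h array, which called 12.3% of all tested genes (10.8% lower). The 8 h minus 2 h difference was -2.57 for Dusp4 (adjusted p = 0.00786, or 4.36e-13 to 0.239 over the alternatives), -2.02 for Dusp5 (adjusted p = 0.00963, or 1.95e-08 to 0.239) and -1.77 for Dusp6 (adjusted p = 0.0281, or 9.18e-07 to 0.239) on the log2 scale. Both times are set against the same baseline arrays, which cancel in these differences. Each rests on 1 array per time.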

How the results depend on the processing

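With all 24922 rows tested, limma called 0 members at 2 h and 0 at 8 h against 2 h. At an unadjusted p under 0.05 there were 2 and 3, beside 1141 and 4971 of all rows. The estimated prior then had 3.51 degrees of freedom in place of 7.46. At 8 h against baseline 1 member, Dusp6, was called after quantile normalization (prior of 34.8 degrees of freedom) and 1, again Dusp6, with each array centred on its median (an unbounded prior). Leaving out a baseline array gave 0 to 1 members at least 2-fold apart at 8 h and, for the pathway lists, 2 to 10 genes at 2 h, the 10 without baseline replicate 2. The lists held 13 and 11 called genes at 2 h, in place of 2, and 13 and 11 at 8 h, in place of 7, after quantile normalization and with centred arrays. Signs of small differences that were not called turned for Dusp1 (0.073) and Dusp10 (0.055) at 2 h with centred arrays, for Dusp2 at 8 h (0.096) and for Dusp10 at 8 h against 2 h (0.035) after quantile normalization. These values for Dusp2 and Dusp10 also turned with the prior and spread of the deposited values, an alternative chosen after seeing the data. Dusp4 and Dusp5 were called at 2 h, and at 8 h against 2 h, in every tested alternative except that with all rows. No paired analysis was possible because only baseline holds a second replicate number.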
